A study of Mus musculus with 96 samples.

Results

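Fgf21, Gdf15, Klb, Inhbe, Lect2, Fetub and Ahsg were taken by name from a table of read counts for 56748 genes, in which each of the 7 names had 1 row. Fgf21, Gdf15, Inhbe, Lect2, Fetub and Ahsg code for hepatokines, proteins that the liver releases into the blood, and Klb codes for β-Klotho, the membrane protein that FGF21 needs to bind its receptors. RNA of liver, skeletal muscle and cerebral cortex had been sequenced from 32 mice fed ad libitum (AL) or kept on intermittent fasting (IF), with 8 mice per diet in mice 1-16, labelled male, and 8 per diet in mice 25-40, labelled female. The males were C57BL/6 on normal chow, began at 6 weeks of age and kept their diets for 4 months, and the IF males had no food for 16 h a day, from 16:00 to 8:00. The strain, age and hours of fasting of the females are not given in the sources used here, and the labels name no transgene, deletion or drug for any group. Males were killed between 7:00 and 12:00, close to the end of the daily fast, so the months on the diet and the hours since the last food cannot be told apart. Sex and anything else that differed between mice 1-16 and mice 25-40 cannot be told apart either.

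The libraries held between 26097314 and 49838004 counts. The first AL cortex library, numbered as mouse 1, was left out of every value given here, and was kept only in 1 alternative of the closing section. It was left out since it had 213 counts of Xist per 1000000 counts of the library (CPM) and no count of Ddx3y under a male label. The other 95 libraries carried the sex-linked genes of their labels. Hepatocyte genes (Alb, Apoa1, Apoa2, Ttr, Serpina3k, Fgb and Cyp3a11) summed to at least 52652 CPM in every liver library and to at most 6.204 CPM in muscle. In cortex their sum, up to 4271 CPM, was nearly all Ttr, and Alb reached 0.856 CPM.

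FGF21 is a hormone of fasting, protein shortage and cell stress that signals through FGF receptors together with β-Klotho. In mouse liver its gene is known as a target of PPARα, which fatty acids activate, and of ATF4, a factor of the integrated stress response. GDF15 is a stress hormone of the TGF-β superfamily that lowers appetite through the hindbrain receptor GFRAL. Inhbe codes for the subunit of activin E, another TGF-β superfamily protein made in liver, Lect2 for leukocyte cell-derived chemotaxin 2, and Ahsg and Fetub for fetuin-A and fetuin-B, plasma proteins of the cystatin superfamily made by hepatocytes.

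In the GRCm39 positions of the count table, Fgf21 (ENSMUSG00000030827) lay at chr7:45263310-45264914 and Gdf15 (ENSMUSG00000038508) at chr8:71082043-71085106, both on the minus strand. Klb (ENSMUSG00000029195) lay at chr5:65505657-65541350 on the plus strand and Lect2 (ENSMUSG00000021539) at chr13:56690277-56696315 on the minus strand. Ahsg (ENSMUSG00000022868), at chr16:22710027-22718199, and Fetub (ENSMUSG00000022871), at chr16:22737084-22758528, are neighbours on the plus strand. Inhbe (ENSMUSG00000047492) lay at chr10:127184726-127190280 on the minus strand. Inhbe overlapped the antisense gene Gm47200, which had at most 0.385 CPM in liver, and Ahsg overlapped the antisense gene Gm30505, which had between 1.42 and 7.14 CPM in liver. The strand setting of the counting is not given in the sources used here, and both antisense levels lay far below those of Inhbe and Ahsg in liver. In muscle and cortex, where Inhbe and Ahsg were low, the antisense levels were not compared with them.

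The promoters of the 4 members whose liver level differed between the diets in mice 1-16 are shown here, so that the sequence ahead of the genes that rose can be set beside that of the genes that fell. They are RefSeq sequences from a GRCm38.p6 table, 300 bases from 250 before to 50 after a transcription start, written 5′ to 3′ on the gene's strand, and each matched 1 place in GRCm39, whose coordinates are given. Capitals mark TTGCATCA, a C/EBP-ATF response element, CACGTG, an E-box, and TATAAA, the TATA box, which were searched on both strands and do not overlap here.
Fgf21, chr7:45264865-45265164, minus strand: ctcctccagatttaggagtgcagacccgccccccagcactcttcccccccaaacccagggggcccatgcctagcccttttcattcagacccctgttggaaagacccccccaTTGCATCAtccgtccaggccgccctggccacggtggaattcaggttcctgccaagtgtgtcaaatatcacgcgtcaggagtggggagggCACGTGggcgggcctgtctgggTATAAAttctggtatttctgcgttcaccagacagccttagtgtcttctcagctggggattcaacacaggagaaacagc
Inhbe, chr10:127187668-127187967, minus strand: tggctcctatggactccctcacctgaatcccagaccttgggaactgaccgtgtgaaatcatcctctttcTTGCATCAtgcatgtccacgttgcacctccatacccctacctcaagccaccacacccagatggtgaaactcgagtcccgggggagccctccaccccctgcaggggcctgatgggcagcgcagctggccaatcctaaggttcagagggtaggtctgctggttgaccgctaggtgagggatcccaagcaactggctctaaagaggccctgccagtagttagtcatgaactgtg
Fetub, chr16:22736882-22737181, plus strand: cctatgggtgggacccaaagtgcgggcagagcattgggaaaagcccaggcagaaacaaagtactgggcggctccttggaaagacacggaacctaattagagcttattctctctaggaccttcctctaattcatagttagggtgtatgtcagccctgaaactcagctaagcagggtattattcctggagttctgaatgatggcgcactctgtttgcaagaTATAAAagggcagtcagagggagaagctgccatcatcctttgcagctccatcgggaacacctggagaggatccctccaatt
Lect2, chr13:56696302-56696601, minus strand: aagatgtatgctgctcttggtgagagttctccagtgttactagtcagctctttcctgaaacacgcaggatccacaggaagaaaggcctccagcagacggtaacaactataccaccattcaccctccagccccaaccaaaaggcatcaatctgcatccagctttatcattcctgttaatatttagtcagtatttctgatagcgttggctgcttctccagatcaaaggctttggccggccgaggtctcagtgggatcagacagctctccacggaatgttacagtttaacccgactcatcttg

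TTGCATCA began at position -139 from the start of Fgf21 and at -181 from the start of Inhbe, and 0.895% of all 32851 promoters in the table held it. The Fgf21 promoter also had the E-box at -50, which 7.15% of promoters held, and the TATA box at -28, which 13.6% held. Fetub had the TATA box at -31. No match was found in the windows of Lect2, Klb and Ahsg or in a second promoter of Fetub, and Gdf15 had the E-box at -83 in the second of its 2 promoters. The start used for Fgf21 was also the gene start of the count table, whereas that used for Inhbe lay 2563 bases inside the gene. A match describes letters in a window and was not tested as a binding site.

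In AL liver the members spanned a wide range of levels. Per kilobase of gene length, the mean of mice 1-16 was 1037 CPM for Ahsg (SD 185, n = 8), 524 for Fetub (SD 48.9), 155 for Lect2 (SD 30.6), 21.5 for Gdf15 (SD 12.1), 13.2 for Inhbe (SD 3.47), 4.44 for Fgf21 (SD 3.24) and 1.53 for Klb (SD 0.287). The ranges of Ahsg, Fetub and Lect2 lay apart from each other, whereas those of Gdf15 and Inhbe overlapped, and so did those of Inhbe and Fgf21 and of Fgf21 and Klb. In AL liver of mice 25-40 the order was the same except that Inhbe, at 16.3 CPM per kilobase (SD 4.57), stood above Gdf15, at 10.9 (SD 5.22), again with overlapping ranges.

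**Figure D1:**
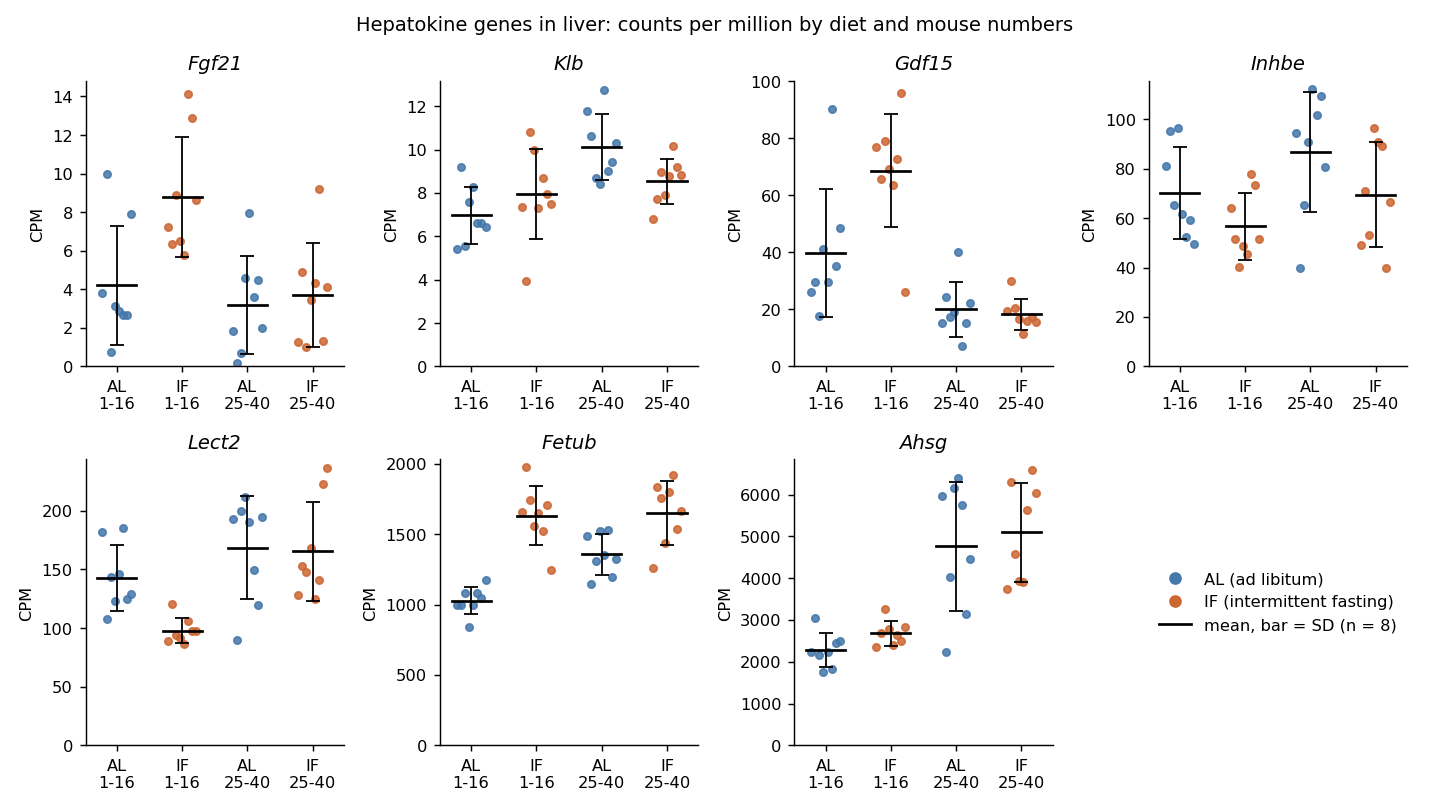
CPM of the 7 genes in each liver library by diet and set of mice, with 8 mice per group, and with group means and SD. Fetub in mice 1-16 is the comparison in which the diets do not overlap, and the Gdf15 library at 90.2 CPM stands above the other 7 AL libraries of mice 1-16.

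In liver of mice 1-16, Fgf21 and Fetub were higher in IF mice, Lect2 and Inhbe were lower, and Gdf15, Klb and Ahsg did not pass the threshold. The test was edgeR's quasi-likelihood test on the raw counts, with Benjamini-Hochberg adjustment over all genes tested and a threshold of 0.05. It called 4 of the 7 members, beside 44.6% of the 16204 genes tested (23.5% higher and 21.1% lower), so the members' share was near that of all genes, as was the balance of higher and lower calls. The median log2 fold change was 0.15 over the members and 0.06 over all genes, with fold changes given throughout as IF against AL and followed by their standard error.

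Fgf21, the fasting and stress hormone, ranged from 0.737 to 9.96 CPM in AL livers of mice 1-16 (median 3.01) and from 5.81 to 14.1 CPM in IF livers (median 7.95). AL mice 2 and 8, at 9.96 and 7.90 CPM, lay within the IF range, and the other 6 AL livers lay below every IF liver. The log2 fold change was 0.99 ± 0.37 (adjusted p = 0.0383, edgeR). The call was lost when any 1 of AL mice 1, 4, 5, 6 and 7 or of IF mice 9, 11, 14, 15 and 16 was left out, with adjusted p between 0.0512 and 0.0756. Without AL mouse 2 the log2 fold change was 1.26 (adjusted p = 0.00696), and with no filter on low counts it was 0.96 (adjusted p = 0.0835).

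Gdf15, the appetite-lowering stress hormone, ranged from 17.8 to 90.2 CPM in AL livers of mice 1-16 (median 32.3) and from 26.3 to 95.9 CPM in IF livers (median 71.0). The overlap came from 1 library on each side. AL mouse 6 had 90.2 CPM, whereas the other AL livers had at most 48.7 CPM, and IF mouse 16 had 26.3 CPM, whereas the other IF livers had at least 63.7 CPM. Over all 16 libraries the log2 fold change was 0.67 ± 0.32 (adjusted p = 0.107, edgeR). Without AL mouse 6 it was 0.99 (adjusted p = 0.00343) and without IF mouse 16 it was 0.79 (adjusted p = 0.041), and Gdf15 was not called with any other library left out.

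Klb, the co-receptor of FGF21, ranged from 5.43 to 9.18 CPM in AL livers of mice 1-16 (median 6.63) and from 3.94 to 10.8 CPM in IF livers (median 7.70). The diets overlapped over the whole AL range. The log2 fold change was 0.10 ± 0.17 (adjusted p = 0.663, edgeR), with a 95% interval from -0.23 to 0.42.

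Inhbe, the activin E subunit gene, ranged from 49.7 to 96.4 CPM in AL livers of mice 1-16 (median 63.4) and from 40.2 to 77.8 CPM in IF livers (median 51.5). AL mice 1, 2 and 4 lay above every IF liver, and IF mice 11, 12 and 13 lay below every AL liver. The log2 fold change was -0.39 ± 0.15 (adjusted p = 0.0349, edgeR). The call was lost without AL mouse 1, 2 or 4 or IF mouse 12 or 16, with adjusted p between 0.0559 and 0.0934. Fgf21 and Inhbe, the members with TTGCATCA in the promoters printed above, were thus called in opposite directions.

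Lect2, the chemotaxin gene, ranged from 108 to 186 CPM in AL livers of mice 1-16 (median 136) and from 86.5 to 120 CPM in IF livers (median 95.5). All IF livers except that of IF mouse 10 lay below the lowest AL liver. The log2 fold change was -0.64 ± 0.13 (adjusted p = 0.000337, edgeR), and Lect2 was called with each of the 16 libraries left out in turn.

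Fetub, the fetuin-B gene, ranged from 843 to 1173 CPM in AL livers of mice 1-16 (mean 1028, SD 95.9) and from 1244 to 1973 CPM in IF livers (mean 1632, SD 208). No IF liver fell within the AL range, which was so for 14.6% of the genes tested. The log2 fold change was 0.57 ± 0.12 (adjusted p = 0.000349, edgeR), and Fetub was called with each library left out. Its neighbour Ahsg, the fetuin-A gene, ranged from 1762 to 3040 CPM in AL livers (median 2242) and from 2356 to 3270 CPM in IF livers (median 2662). The diets overlapped, and the log2 fold change of Ahsg was 0.15 ± 0.12 (adjusted p = 0.316).

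Genes of red blood cells and of other cell types moved with diet in the same livers. The sum of 5 erythrocyte genes (Hba-a1, Hba-a2, Hbb-bs, Hbb-bt and Alas2) ranged from 362 to 956 CPM in AL livers and from 667 to 6879 CPM in IF livers of mice 1-16 (two-sided exact permutation test of the means, p = 0.0028, n = 8 per diet), and 3 of the 5 genes were called higher. With these genes as a covariate, Fgf21 (log2 fold change 1.12, adjusted p = 0.13, edgeR) and Inhbe (-0.51, adjusted p = 0.0788) were no longer called, and 4284 genes were called in place of 7234. Fetub and Lect2 were still called. The fold changes of Fgf21 and Inhbe were larger in size than without the covariate (0.99 and -0.39). The erythrocyte sum itself differed between the diets, so this fit cannot tell its part from that of diet. Of 4 endothelial genes, Kdr and Tek were higher, Pecam1 and Cdh5 were not called, and their sum ranged from 39.9 to 60.1 CPM in AL and from 64.3 to 113 CPM in IF livers. Of 4 stellate and fibroblast genes, Dcn and Lum were higher, Col1a1 and Col3a1 were not called, and their sum ranged from 60.3 to 111 CPM in AL and from 90.1 to 167 CPM in IF livers. Of 7 hepatocyte genes, Cyp3a11 was higher and Apoa1 and Fgb were lower, with sums from 70248 to 96567 CPM in AL and from 65952 to 90635 CPM in IF livers. Of 5 macrophage genes, C1qa was higher and the others were not called. Of 5 adipocyte genes 2 were tested. Cfd was lower, at 11.4 to 32.2 CPM in AL and 0.328 to 1.53 CPM in IF livers, Cidec was not called, and Adipoq, Plin1 and Lep had at most 0.775 CPM. Of 3 astrocyte genes tested, 2 were higher and 1 was lower, with sums from 72.49 to 142.5 CPM in AL and from 230.7 to 304.4 CPM in IF livers. The 1 choroid plexus gene tested and 1 of 2 neuron genes tested were higher. The astrocyte, choroid plexus and neuron lists are lists of brain cells, so no content of such cells is read from them in liver. The part of the other lists in the members' differences was not tested. In bulk tissue, fewer cells of a type and less RNA per cell cannot be told apart.

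**Figure D2:**
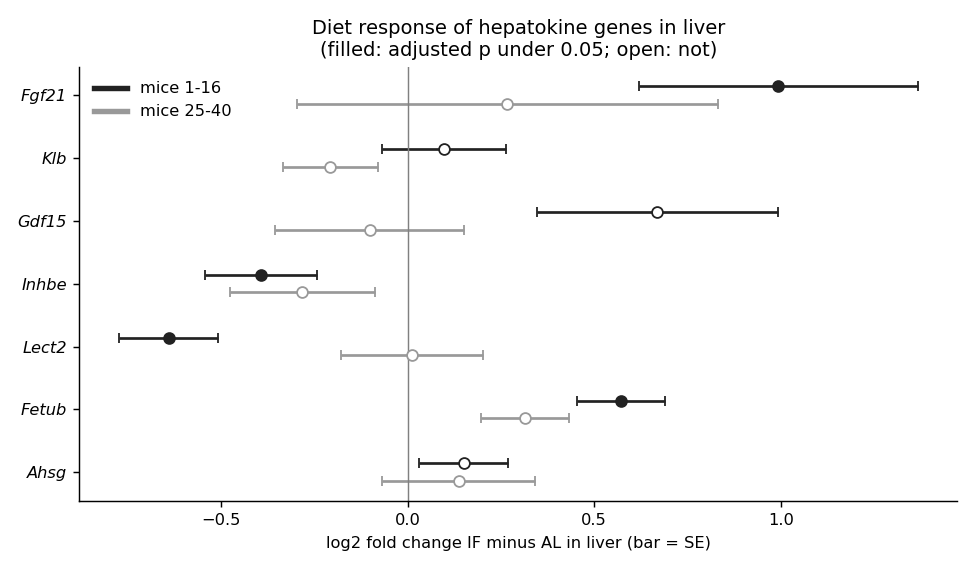
Log2 fold change of IF against AL in liver for each of the 7 genes, with standard errors, black for mice 1-16 and grey for mice 25-40; filled points have an adjusted p under 0.05. In mice 1-16 Fgf21 at 0.99 and Fetub at 0.57 lie to the right of 0 and Inhbe at -0.39 and Lect2 at -0.64 to the left of it among the filled points, and no point of mice 25-40 is filled.

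In liver of mice 25-40 no member was called, and neither was any of the 15938 genes tested (0.0% called by edgeR, 919 genes at an unadjusted p under 0.05, and 6 genes called by DESeq2). Fgf21 ranged from 0.172 to 7.97 CPM in AL livers (median 2.80) and from 1.03 to 9.21 CPM in IF livers (median 3.79), and its log2 fold change was 0.27 ± 0.56. With 1 library left out, that value lay between -0.08 and 0.63. Gdf15 ranged from 7.06 to 40.3 CPM in AL livers and from 11.5 to 30.1 CPM in IF livers. Its log2 fold change was -0.10 ± 0.25, and between -0.23 and 0.12 with 1 library left out. The IF range of Gdf15 lay inside its AL range, and the ranges of Fgf21 overlapped over most of their length.

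Fetub of mice 25-40 ranged from 1145 to 1530 CPM in AL livers (median 1340) and from 1257 to 1920 CPM in IF livers (median 1708). All IF livers but those of IF mice 33 and 36 lay above the highest AL liver. The log2 fold change was 0.32 ± 0.12, with an unadjusted p of 0.0141 and an adjusted p of 0.785 by edgeR. Klb ranged from 8.43 to 12.7 CPM in AL and from 6.78 to 10.1 CPM in IF livers, a log2 fold change of -0.21 ± 0.13. Inhbe had -0.28 ± 0.19, Ahsg 0.14 ± 0.21 and Lect2 0.01 ± 0.19, all with overlapping diets.

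Whether the diet response differed between the 2 sets of mice was tested as an interaction over the 32 liver libraries, as mice 25-40 minus mice 1-16. Lect2 was the 1 member called, beside 23.7% of the 17658 genes tested. Its response was higher in mice 25-40 by 0.69 ± 0.24 on the log2 scale (adjusted p = 0.0343, edgeR), between a fold change of -0.64 in mice 1-16 and 0.01 in mice 25-40. That call was lost without AL mouse 1, 6, 26, 30 or 31 or IF mouse 9, 13, 39 or 40, with adjusted p between 0.0545 and 0.0804. It was also lost with the replicate number as a block. The interaction of Gdf15 was -0.74 ± 0.43 (adjusted p = 0.228) and, without AL mouse 6, -1.06 (adjusted p = 0.0409). That of Fgf21 was -0.70 ± 0.71 (adjusted p = 0.529), with an interval from -2.10 to 0.70, so neither a loss of the response in mice 25-40 nor a response of equal size was shown. For Fetub it was -0.23 ± 0.16, for Klb -0.27 ± 0.21, for Inhbe 0.14 ± 0.26 and for Ahsg 0.02 ± 0.24. Of 5 erythrocyte genes, 2 were called lower in this interaction, with a list median of -1.595. Values with the erythrocyte genes as a covariate are not reported here for this interaction.

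The AL livers of the 2 sets of mice were compared after their levels had been seen. Ahsg had a mean of 4763 CPM (SD 1547, n = 8) in mice 25-40 and of 2279 CPM (SD 406, n = 8) in mice 1-16, a log2 difference of 0.90 ± 0.19 (adjusted p = 0.00126, edgeR). Klb was also higher in mice 25-40, at 10.1 CPM (SD 1.54) against 6.97 CPM (SD 1.31), by 0.38 ± 0.13 (adjusted p = 0.0389). Gdf15 was lower in mice 25-40, at 20.1 CPM (SD 9.68) against 39.8 CPM (SD 22.4), by -1.18 ± 0.36 (adjusted p = 0.0293), and by -0.86 without AL mouse 6 (adjusted p = 0.0499). The other 4 members were not called, and 22.3% of the 16090 genes tested were. Genes of cell types differed as well. In mice 25-40, 3 of 5 macrophage genes were higher. Lower were 2 of 7 hepatocyte genes, both adipocyte genes tested, 1 of 5 erythrocyte and 1 of 4 endothelial genes. None of 4 stellate and fibroblast genes was called. The part of these lists in the members' differences was not tested.

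The genes that act with the members were counted in lists. In the FGF21 receptor complex, the member Klb included, 5 of 6 genes were tested in liver of mice 1-16, and none was higher and 2 were lower in IF mice. All list counts of this comparison stand beside the 44.6% of all genes called, 23.5% higher and 21.1% lower. Fgfr4, the FGF receptor most abundant in hepatocytes, ranged from 63.3 to 130 CPM in AL and from 47.8 to 92.6 CPM in IF livers, a log2 fold change of -0.66 ± 0.13 (adjusted p = 0.000181, edgeR), and Fgfr3 had -0.47 ± 0.17 (adjusted p = 0.0286). Fgfr1, the receptor through which FGF21 acts in fat, had 0.08 ± 0.19 and did not pass. For GDF15, its receptor gene Gfral had no count in any of the 32 liver libraries, and none of Furin, Pcsk5 and Mmp14, genes of proteases, was called.

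Of 19 regulators of Fgf21 and Gdf15, 3 were higher and 5 were lower in IF livers of mice 1-16, a share near that of all genes, and the list's median was -0.14 against 0.06 over all genes. Ppara, the gene of PPARα, had a mean of 10.4 CPM (SD 1.95) in AL and 26.2 CPM (SD 7.05) in IF livers and did not overlap between diets, a log2 fold change of 1.24 ± 0.16 (adjusted p = 8.67e-07, edgeR). Ppargc1a, a coactivator of PPARα, and Creb3l3, a fasting-induced liver factor, rose by 0.79 ± 0.27 and 0.65 ± 0.10. Nr1d1, the clock repressor REV-ERBα, fell by 1.96 on the log2 scale (SE 0.26), and Trp53, the gene of p53, which activates Gdf15, fell by 1.40 (SE 0.19). Ern1 and Xbp1, a sensor and a factor of the unfolded protein response, and Atf4, at -0.65 ± 0.13, were lower as well.

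Among other hormones secreted by the liver, 8 of 16 genes tested were higher and 3 were lower in IF livers of mice 1-16, with a median of 0.52. Igfbp1, which binds insulin-like growth factors and is repressed by insulin, ranged from 1.25 to 25.98 CPM in AL and from 40.2 to 173 CPM in IF livers, a log2 fold change of 3.23 ± 0.51 (adjusted p = 0.000121, edgeR). Angptl4, a lipoprotein lipase inhibitor and PPAR target, rose by 2.83 ± 0.27. Angptl8, a gene induced by insulin, fell by 2.42 (SE 0.44). Each of these named genes exceeded the change of every member in size.

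Among 10 tested genes of the activin and inhibin family, Inhbe included, 3 were higher and 3 were lower. Inhba, the activin A subunit gene, ranged from 4.25 to 24.8 CPM in AL and from 1.13 to 3.06 CPM in IF livers, and its log2 fold change was -3.15 ± 0.28 (adjusted p = 1.67e-08, edgeR). Acvr2b, a type II activin receptor gene, rose by 2.24 ± 0.24. Inhbc, a close relative of Inhbe that is also made in liver, had -0.24 ± 0.12 (adjusted p = 0.121).

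On chromosome 16 Fetub and Ahsg lie in a run of cystatin superfamily genes with Hrg, Kng1 and Kng2, and 3 of the 5 were higher in IF livers of mice 1-16. Kng2 and Kng1, kininogen genes, rose by 0.63 ± 0.10 and 0.31 ± 0.11, along with Fetub. Hrg, at 0.29 ± 0.12 (adjusted p = 0.0518, edgeR), was not called. Of 3 receptors that bind LECT2, Met, also the receptor of hepatocyte growth factor, rose by 0.62 ± 0.11, whereas Tie1 and Cd209a were not called.

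None of these genes was called in liver of mice 25-40. The interaction of diet and set of mice was called for Ppara (-1.23 ± 0.25), Igfbp1 (-4.04 ± 0.97), Angptl4 (-2.49 ± 0.43), Fgfr4 (0.67 ± 0.21), Inhba (3.27 ± 0.38) and Kng2 (-0.56 ± 0.18), genes named for their change in mice 1-16. Over the lists it was called for 10 of 19 regulators, 7 of 17 other hormones, 2 of 10 activin and inhibin genes, 1 of 5 genes of the FGF21 receptor complex and 1 of 5 genes of the run on chromosome 16, beside 23.7% of all genes tested. It was called for none of 3 genes for GDF15 and none of 3 LECT2 receptors.

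**Figure D3:**
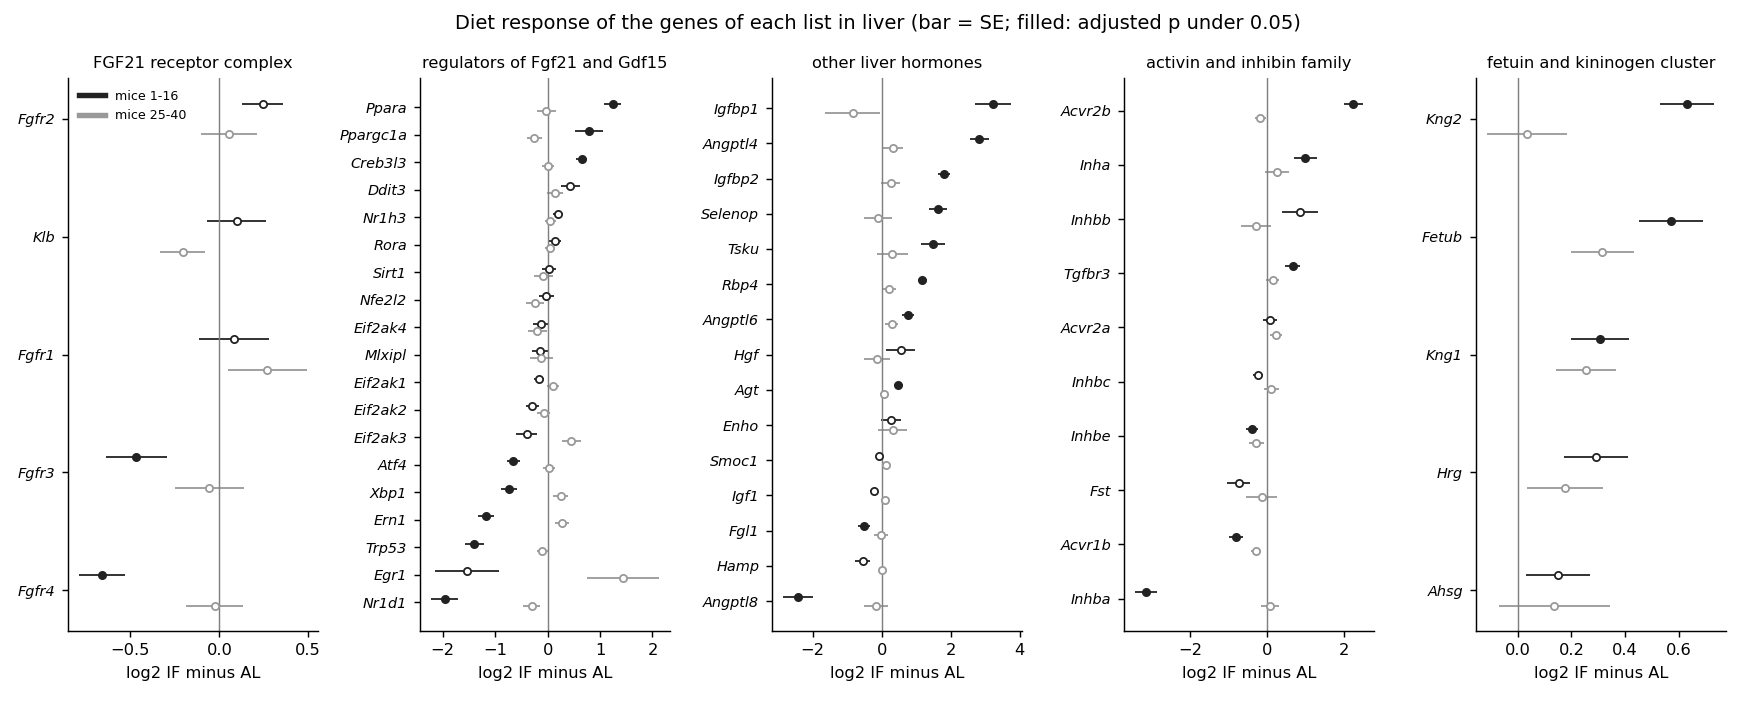
Log2 fold change of IF against AL in liver for genes of 5 lists, with standard errors, in mice 1-16 and in mice 25-40; filled points have an adjusted p under 0.05. Igfbp1 at 3.23 and Inhba at -3.15 are the outermost points of mice 1-16, and all points of mice 25-40 are open.

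In muscle the hepatokine genes were near the limit of detection under both diets. Over the 32 muscle libraries the highest value was 0.263 CPM for Fgf21, 0.660 for Gdf15, 0.755 for Fetub, 0.333 for Ahsg, 0.0512 for Inhbe and 0.0290 for Lect2. Lect2 had 1 count in all 32 libraries together and Inhbe had 4. Fetub was the 1 member that passed the filter on low counts within each set of mice, with log2 fold changes of 0.01 in mice 1-16 (adjusted p = 0.988, edgeR) and 0.20 ± 0.38 in mice 25-40 (adjusted p = 0.883). Of the genes tested in muscle, 23.0% were called in mice 1-16 and 0.00653% in mice 25-40.

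Klb in muscle ranged from 0 to 0.359 CPM in AL mice 1-16 (median 0.110) and from 0.0885 to 2.60 CPM in IF mice (median 0.531). IF mice 9, 10, 12 and 16 lay above every AL mouse, and IF mouse 12, at 117 counts, lay well above the next library, at 43 counts. The mean was higher in IF mice by 0.641 CPM (two-sided exact permutation test, p = 0.0123, n = 8 per diet). With no filter on low counts the log2 fold change was 2.40 ± 0.69 (adjusted p = 0.0371, edgeR), and without IF mouse 12 it was 1.83 ± 0.52 (adjusted p = 0.00987). Klb had failed the filter here, with 40 counts in AL and 239 in IF muscle, so its values are a description.

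In mice 25-40 muscle Klb ranged from 0.143 to 0.493 CPM in AL mice (median 0.195) and from 0 to 0.380 CPM in IF mice (median 0.0744). Here 6 of 8 IF mice lay below every AL mouse, and the IF mean was lower by 0.152 CPM (two-sided exact permutation test, p = 0.0412, n = 8 per diet). With no filter the log2 fold change was -1.13 ± 0.58 (adjusted p = 0.442, edgeR). The interaction of diet and set of mice was -3.50 ± 0.86 (adjusted p = 0.00547), beside 14.2% of the 16346 genes tested, and without IF mouse 12 it was -2.94 ± 0.83 (adjusted p = 0.0153). Klb had failed the filter within each set of mice and entered this fit with 40 counts in AL and 239 in IF muscle of mice 1-16 and 77 and 38 in mice 25-40, so it passed through the groups where it is high and the value is a description.

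In the fit of liver minus muscle in mice 1-16, with the mouse as a block, Klb had a log2 value of -2.04 ± 0.68 (adjusted p = 0.0282, edgeR), beside 30.3% of the 18222 genes called. Klb had not passed the filter in the diet fit of muscle, where the 8 AL libraries held 40 counts together, and entered this fit through its level in liver. Without mouse 12 the value was -1.70 ± 0.65 (adjusted p = 0.0576). No difference in response between the tissues is therefore read from this fit. In mice 25-40, where Klb had 0.94 ± 0.52, no gene was called (0.0%, with 835 genes at an unadjusted p under 0.05).

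Adipocyte genes moved with diet in muscle of mice 1-16, as Klb did. The sum of Adipoq, Plin1, Cfd, Lep and Cidec ranged from 30.1 to 332 CPM in AL and from 112 to 1860 CPM in IF muscle of mice 1-16 (two-sided exact permutation test, p = 0.000932, n = 8 per diet), and 4 of the 5 genes were called higher, whereas Lep was not. The 4 IF mice with the most Klb had the 4 highest sums, from 868 to 1860 CPM. In mice 25-40 the sum ranged from 61.8 to 708 CPM in AL and from 13.99 to 477 CPM in IF muscle (exact permutation p = 0.496), and none of the 5 genes was called. With the adipocyte genes as a covariate and no filter, the log2 fold change of Klb in mice 1-16 was 0.77 ± 0.57 (adjusted p = 0.471, edgeR), and with that covariate the interaction was -1.87 ± 0.74 (adjusted p = 0.0721). Genes of other lists were lower in IF muscle of mice 1-16, beside 23.0% of all genes called. They were 2 of 6 muscle fibre, 2 of 5 macrophage, 2 of 4 stellate and fibroblast and 1 of 4 endothelial genes. None of 5 erythrocyte genes was called. The part of these lists in the values of Klb was not tested. In these libraries more adipocyte RNA and more Klb RNA per cell cannot be told apart.

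**Figure D4:**
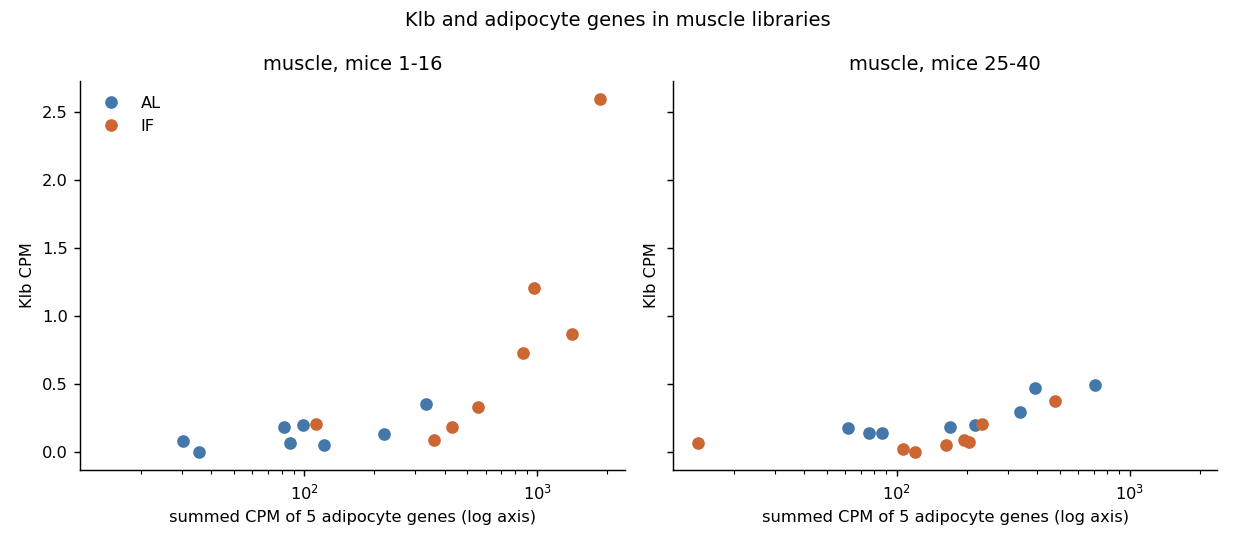
Klb in CPM against the summed CPM of 5 adipocyte genes in each muscle library, by diet and set of mice, with 8 mice per group. The 4 libraries with the most Klb, from 0.730 to 2.60 CPM, are IF libraries of mice 1-16 with sums of at least 868 CPM.

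In cortex no member was called for diet. Klb had a count in each of the 31 libraries and ranged from 0.338 to 0.856 CPM in AL and from 0.268 to 0.999 CPM in IF mice 1-16, with log2 fold changes of -0.10 ± 0.30 there and -0.07 ± 0.22 in mice 25-40. Inhbe ranged from 0.0618 to 0.374 CPM in AL and from 0.138 to 0.521 CPM in IF mice 1-16, with 0.31 ± 0.36 there and -0.45 ± 0.32 in mice 25-40. Gdf15 passed the filter in mice 25-40 and had -0.42 ± 0.37. The diets overlapped for each of them, and of the genes tested 7.21% were called in mice 1-16 and 0.0109% in mice 25-40. The interaction of diet and set of mice was called for none of these 3 members, beside 2.03% of the genes tested (397 of 19547, and 3007 at an unadjusted p under 0.05).

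All 7 members were higher in liver than in muscle and than in cortex of AL mice in both sets of mice, by edgeR with the mouse as a block. Most members were low in the other tissues and passed the filter through liver, where they are high, so the count of 7 is a description. Between 79.1% and 84.0% of all genes tested were called in these comparisons (79.2% and 83.4% in mice 1-16). Of all genes, 38.9% were higher in liver than in muscle and 37.5% higher than in cortex in mice 1-16, with 37.9% and 36.8% in mice 25-40. In mice 1-16 the log2 difference from muscle was 5.26 ± 0.64 for Fgf21, 5.48 ± 0.35 for Klb, 7.53 ± 0.35 for Gdf15 and 11.40 ± 0.34 for Fetub. From cortex it was 4.37 ± 0.33 for Klb, 6.95 ± 0.73 for Fgf21, 8.23 ± 0.37 for Gdf15 and 14.47 ± 0.42 for Fetub. Lect2 had no count in AL muscle of mice 1-16 and was at least 13744.5-fold higher in liver, with 3 counts over the group as the floor. Inhbe had no count in AL muscle of mice 25-40 and was at least 8680.4-fold higher in liver by the same floor.

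The members were also counted in muscle and cortex of AL mice, as a description. Fetub had 101 counts in 8 muscle libraries and 21 in 7 cortex libraries of mice 1-16, 15 of them in mouse 8, and 77 and 29 counts in 8 libraries each of mice 25-40. Klb had 40 counts in muscle and 160 in cortex of mice 1-16, and 77 and 194 in mice 25-40. Inhbe had 1 and 67 counts in mice 1-16 and 0 and 162 in mice 25-40. The counts of Fetub were thus more numerous in muscle, and those of Klb and Inhbe in cortex, in both sets of mice. Lect2 had 0 and 15 counts in mice 1-16 and 1 and 14 in mice 25-40, and Gdf15 had 52 and 60 and then 39 and 95. The order of the counts turned between the sets for Fgf21, with 24 and 12 counts in mice 1-16 and 11 and 24 in mice 25-40, and for Ahsg, with 10 and 6 and then 2 and 4. In the fit of the 3 tissues edgeR called 4 members between muscle and cortex in mice 1-16 and 3 in mice 25-40, beside 80.2% and 80.5% of genes. Each member had failed the filter in the diet fits of muscle, of cortex or of both and entered this fit through the tissues where it is higher, so no order of muscle and cortex is read from these calls.

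**Figure D5:**
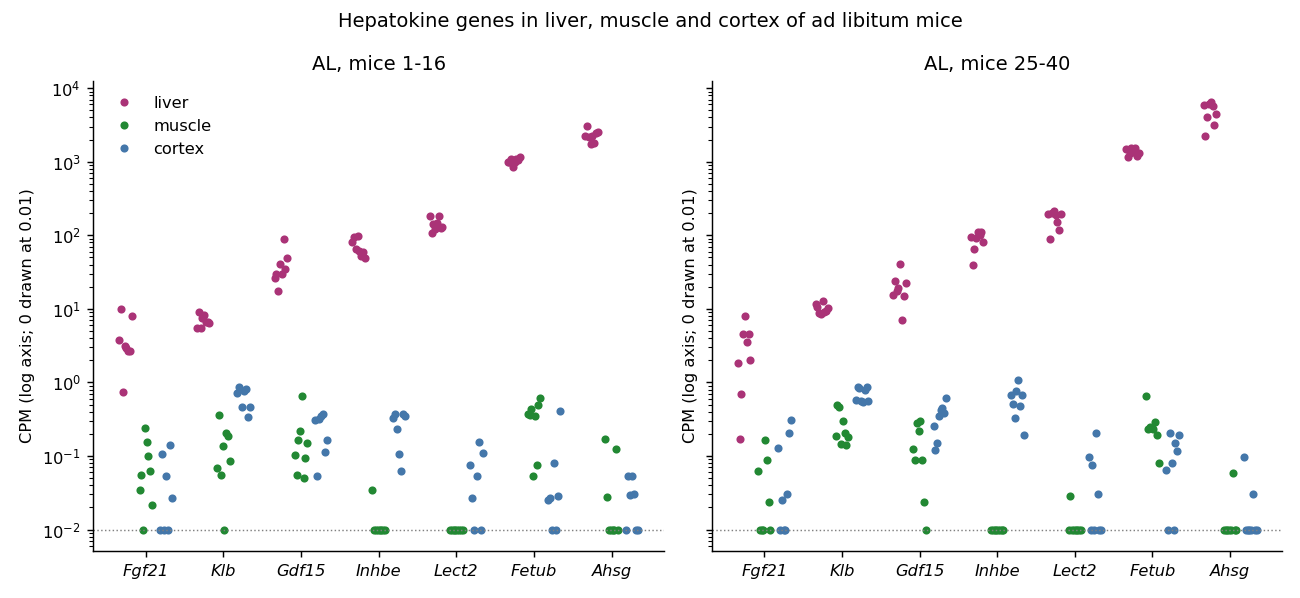
CPM of the 7 genes in each AL library of liver, muscle and cortex on a log axis, with values of 0 on the dotted line and 8 mice per tissue and set of mice, or 7 for cortex of mice 1-16. The liver libraries form the top group for each gene, and Fgf21 in liver reaches down to 0.172 CPM in AL mouse 26, within its range in cortex of AL mice 25-40.

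Across the 32 liver libraries some members varied together and others did not. Fgf21 had a Pearson's r of 0.48 with Gdf15 and 0.25 with Inhbe on the log2 CPM scale. After subtraction of the mean of each of the 4 groups, its r was 0.09 with Gdf15 and 0.69 with Inhbe. On that measure Inhbe ranked 6 for Fgf21 among 13423 genes, and Fgf21 ranked 4 for Inhbe. The neighbours Fetub and Ahsg had an r of 0.54, and 0.48 within groups. Ahsg also had an r of 0.59 with Lect2, and 0.53 within groups, and its r with Fgf21 was -0.04, and 0.51 within groups. With Klb and Gdf15 the r of Ahsg was 0.52 and -0.58 over all libraries, and 0.22 and -0.08 within groups. The other pairs lay between -0.20 and 0.29 within groups. These values describe libraries that share tissue and preparation, and no test was made of them.

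The genes most like each member were taken by r over the same 32 liver libraries. For Fgf21 they were Trp53inp2 (0.81), Pllp (0.80) and Erp29 (0.78), with 0.73, 0.70 and 0.67 within groups. For Gdf15 they were Pdk4 (0.81), Rhod (0.80) and Arl4d (0.80), and within groups r was 0.20, 0.36 and 0.56, so the likeness to Pdk4 lay mostly between groups. Klb was most like Clcc1, Palmd and Retreg1 (0.74, 0.74 and 0.73), and Inhbe was most like Nudt5, Dcaf12 and Fntb (0.77, 0.73 and 0.70). Lect2 was most like Pon1 (0.92), Cmbl (0.90) and Rbx1 (0.89), and Ahsg was most like Erg28 (0.95), 2310015A16Rik (0.93) and Serpina10 (0.92). For Fetub they were Pfdn5 (0.92), Ncl (0.90) and Kng1 (0.88), the last a gene of its own run on chromosome 16.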

How the data were processed

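Poly-A RNA of liver, muscle and cortex was sequenced from directional libraries. Per the labels and the study's methods, the authors aligned reads with HISAT2 to GRCm39 and deposited raw counts per gene from featureCounts, and the strand setting is not given in the sources used here. From these counts, CPM was the count per 1000000 counts of the library. Genes were filtered with filterByExpr (minimum count 10), scaled by TMM and tested with edgeR 4.0.16 (quasi-likelihood) in R 4.3.3, each tissue and set of mice apart. Libraries of different tissues with the same number were taken to come from 1 mouse, which the labels do not state. The count of 32 mice rests on this. Tissues of the same mice were compared with the mouse as a block. DESeq2 1.42.0, RLE size factors, filters, covariates and left-out libraries were alternatives. In simulated counts, 60% of 2-fold changes were recovered for the liver diet response of mice 1-16. A far smaller share of genes was changed there than the 44.6% called in the data. The adjustment for multiple tests was therefore stricter, and the 60% does not measure recovery in the data. The members and lists were chosen with earlier results of these data known. List genes were named for the largest changes, and genes most like a member by Pearson's r. A gene of the lists is not reported here by name, though the list counts include it. The labels name no batch, and p-values set a difference against the spread between these libraries.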

Additional observations from a re-analysis of the deposited data

Results flagged for a closer look

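Gdf15 had 2 libraries far from their groups in liver of mice 1-16. AL mouse 6 had 90.2 CPM, with the next AL liver at 48.7 CPM, and IF mouse 16 had 26.3 CPM, with the next IF liver at 63.7 CPM. Klb had 2.60 CPM in muscle of IF mouse 12, with the next IF library at 1.21 CPM. In each case the gap to the next library, as a share of the group's range, was above Dixon's 95% critical value for 8 samples (0.526). In all, 40 groups were tested in this way, and chance gives such a library in about 1 group in 20.

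The interaction of diet and set of mice was called for Lect2 in liver (0.69 on the log2 scale), a call lost in 9 of 32 fits with 1 library left out (adjusted p up to 0.0804, edgeR) and with the replicate number as a block (adjusted p = 0.0568). It was also called for Klb in muscle (-3.50), which had failed the filter within each set of mice and passed through the groups where it is high. The fit of liver minus muscle in mice 1-16 also called Klb (-2.04), which had passed the filter through liver alone, and without mouse 12 it was not called (-1.70, adjusted p = 0.0576, edgeR). With the adipocyte genes as a covariate the muscle interaction of Klb was -1.87 (adjusted p = 0.0721, edgeR), and their part in the value for liver minus muscle was not tested.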

How the results depend on the processing

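Leaving out each library, the targeted fits without 1 mouse, both fits with covariates in the interactions, the adipocyte covariate without a filter, and the comparison of AL livers were chosen after seeing the data. For liver of mice 1-16, 4 members and 7234 genes were called, against 2 members and 4284 genes with the erythrocyte covariate. With 1 library left out, between 2 and 4 members and between 6842 and 7219 genes were called. Klb, which had failed the filter in muscle of mice 1-16, was called there when the filter was removed, and that call is a description. In the liver interaction 1 member, Lect2, and 4184 genes were called. With 1 library left out, between 0 and 1 members (Gdf15 in place of Lect2 without AL mouse 6) and between 3836 and 4315 genes were called. Klb was no longer called in the muscle interaction with the adipocyte covariate. For liver minus muscle in mice 1-16, 1 member and 5524 genes were called. Without mouse 12, 0 members and 5298 genes were called. DESeq2 gave no adjusted p for the Klb interaction in muscle (log2 value -3.56).

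Counts of genes called moved as follows. Cortex of mice 1-16 had 1332 genes, 2259 by DESeq2, 498 with 7 mice per diet and 294 with the first AL cortex library kept. Cortex of mice 25-40 had 2, and 73 by DESeq2. Liver of mice 25-40 had 0, and 6 by DESeq2. Muscle of mice 25-40 had 1, 91 by DESeq2, 5 without the filter, 2 with the adipocyte covariate and no filter, and between 1 and 3 with 1 library left out. The cortex interaction had 397, and 706 by DESeq2. The log2 interaction of Fetub in muscle reversed to -0.0059 with the adipocyte covariate. The cause was not tested.

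Of 47 pairs of mice that share a replicate number across diets, 10 deviated together with r over 0.1 (from -0.262 to 0.458). In muscle of mice 25-40, 4 of 8 pairs did. Whether these values exceed those of unmatched mice was not tested. With the replicate number as a block, cortex of mice 1-16 had 382 genes called and cortex of mice 25-40 had 0, the Lect2 interaction in liver was 0.68 (adjusted p = 0.0568, edgeR) with 0 members called, and the log2 values of Gdf15 reversed to 0.0226 in liver of mice 25-40 and to -0.0088 for the cortex interaction. Without the block by mouse, liver minus muscle in mice 25-40 had 2 genes called, Fgf21 reversed there to -0.10, and Fgf21 was called between muscle and cortex in AL mice 1-16 (1.77, adjusted p = 0.045). Of the member values under other settings, 281 kept their direction and side of the threshold, 6 lost the call, 1 gained it and 4 reversed. Counts were few for Lect2 and Inhbe in muscle and for Ahsg in muscle and cortex, with 1, 4, 50 and 17 over all libraries. Fgf21 was at 0 in 13 of 32 muscle and 10 of 31 cortex libraries. Whether deeper sequencing would find more of them was not tested.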
